A study of Mus musculus with 18 samples.

Results

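The T cell receptor complex and the T lineage were followed in the spleen through 30 genes of mouse: the CD3 chains, the co-receptors, other T cell surface receptors, the kinases and adaptors of receptor signalling, T lineage transcription factors, and the receptors for T cell survival and exit. The genes were chosen by symbol, as textbook members of these groups, with earlier results of these data known. All 30 were found among the 19326 lines of the expression table, and all 30 passed the filter on low values (3 or more of the 18 libraries at an RPKM of 1 or above), which kept 12905 genes. RPKM divides the reads of a gene by its length in kilobases and by the mapped reads of the library, so levels are per length and can be compared between genes.

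Spleens of ICR mice aged 10 weeks were sequenced, with 3 libraries in each of 6 groups. Con animals were controls, kept on the regular diet and given saline. The A10 group was dosed with AOS (alginate oligosaccharide, made by breaking down a seaweed polysaccharide) at 10 mg/kg. STZ animals received streptozotocin, a toxin of the insulin-producing cells of the pancreas that is used to model type 1 diabetes. STZ-A10 animals received both STZ and AOS. Con-FMT and A10-FMT animals received STZ followed by microbiota transplanted from control donors or from donors dosed with AOS at 10 mg/kg. The transplanted microbiota was small intestinal content pooled over donors, so each transplant group had 1 source of microbiota. For the transplant experiment, the methods of the study describe Con, STZ, Con-FMT and A10-FMT, all in male mice. They also name an A10 group of male donor mice dosed with AOS at 10 mg/kg. Whether the A10 spleens came from such donors is not stated, and their labels give an age of 10 weeks. The A10 and STZ-A10 groups of this series are known here from the sample labels alone.

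A T cell recognises peptide on an MHC molecule through its receptor, a pair of variable chains that cannot signal by themselves. The CD3 chains carry the signal, the kinase Lck rides on the co-receptors CD4 and CD8 and phosphorylates the CD3 chains, and the kinase Zap70 docks on them and phosphorylates the scaffold Lat, on which Lcp2 (SLP-76) assembles the next step. In the spleen, T cells fill the sleeves of white pulp around the arterioles beside the B cell follicles, while the red pulp holds macrophages, blood and, in mice, blood-forming cells.

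The positions below are those of the GENCODE M21 annotation of GRCm38, matched by symbol. Of the 4 CD3 genes, 3 stand together on chromosome 9. Cd3g lies on the minus strand (chr9:44969572-44980431) and Cd3d on the plus strand (chr9:44981786-44987339), head to head across a gap of 1354 bases. Cd3e follows on the minus strand (chr9:44998740-45009627), 11400 bases beyond the end of Cd3d. Cd247, the gene of the zeta chain, is elsewhere, on the plus strand of chromosome 1 (chr1:165788681-165877277). Of the exon bases of Cd247, 3213 are shared with Pou2f1 on the opposite strand or Gm16565 on the same strand, and whether reads were counted by strand is not stated in the sources used here, so its level is uncertain. The same holds for 1208 exon bases that Lef1 shares with Gm43352 on the opposite strand. The next closest pairs were Cd8b1 and Cd8a on chromosome 6, 35.9 kb apart on the same strand, and Cd5 and Cd6 on chromosome 19, 50.3 kb apart on the same strand. Farther apart were Cd4 and Cd27 on chromosome 6 (344.4 kb) and Thy1 and Cd3g on chromosome 9 (921.0 kb).

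RefSeq promoter windows (GRCm38.p6, 250 bases before to 50 after the start) were found for 21 of the 30 genes, in 29 windows. The windows of the CD3 genes and of Il7r are printed because the CD3 genes encode the signalling chains and Il7r departed from them in level. Capitals mark matches, on either strand, to 5 short motifs of the TCF/LEF, RUNX, ETS, GATA and E-box kinds, whose letters are given after the sequences. No motif overlapped another in these windows.
Cd3g (chr9:44980382-44980681, minus strand): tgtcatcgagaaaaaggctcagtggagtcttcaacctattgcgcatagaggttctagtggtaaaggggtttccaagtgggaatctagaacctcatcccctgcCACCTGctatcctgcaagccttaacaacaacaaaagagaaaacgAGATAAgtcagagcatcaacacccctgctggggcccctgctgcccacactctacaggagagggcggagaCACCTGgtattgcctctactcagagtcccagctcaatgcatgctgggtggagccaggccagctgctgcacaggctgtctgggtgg
Cd3d (chr9:44981536-44981835, plus strand): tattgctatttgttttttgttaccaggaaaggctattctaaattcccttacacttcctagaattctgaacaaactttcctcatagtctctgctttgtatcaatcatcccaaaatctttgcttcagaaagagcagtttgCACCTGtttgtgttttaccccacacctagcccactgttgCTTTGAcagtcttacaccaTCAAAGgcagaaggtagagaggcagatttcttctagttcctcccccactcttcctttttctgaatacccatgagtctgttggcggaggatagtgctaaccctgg
Cd3e (chr9:45009562-45009861, minus strand): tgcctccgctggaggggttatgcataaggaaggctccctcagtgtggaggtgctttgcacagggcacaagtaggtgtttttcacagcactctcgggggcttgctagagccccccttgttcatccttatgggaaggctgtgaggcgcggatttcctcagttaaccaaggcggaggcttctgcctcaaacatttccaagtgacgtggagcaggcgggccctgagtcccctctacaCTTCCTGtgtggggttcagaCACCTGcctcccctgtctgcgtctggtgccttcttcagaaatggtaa
Cd247 (chr1:165788431-165788730, plus strand): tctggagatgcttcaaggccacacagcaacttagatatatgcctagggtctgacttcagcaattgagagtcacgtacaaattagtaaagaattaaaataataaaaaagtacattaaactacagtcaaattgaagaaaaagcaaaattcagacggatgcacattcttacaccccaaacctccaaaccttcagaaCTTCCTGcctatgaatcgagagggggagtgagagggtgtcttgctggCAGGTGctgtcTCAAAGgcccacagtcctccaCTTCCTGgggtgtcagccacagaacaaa
Il7r (chr15:9529827-9530126, minus strand): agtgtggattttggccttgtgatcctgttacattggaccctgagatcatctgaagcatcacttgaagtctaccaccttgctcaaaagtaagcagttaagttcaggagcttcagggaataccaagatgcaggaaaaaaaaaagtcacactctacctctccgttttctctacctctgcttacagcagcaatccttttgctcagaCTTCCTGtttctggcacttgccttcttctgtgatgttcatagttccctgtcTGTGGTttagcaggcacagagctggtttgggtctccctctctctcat
The E-box letters occurred in all 4 CD3 windows and not in the Il7r window, where matches to the ETS and RUNX letters were found. For ETS factors the letters searched were CAGGAAG, which 37.9% of the 29 windows of T lineage genes and 13.3% of all 32851 windows held. The E-box searched was CAGGTG, held by 37.9% of the T lineage windows and 20.2% of all windows. For TCF/LEF factors the letters were CTTTGA, found in 31.0% of the T lineage windows against 16.0% of all windows. The RUNX letters, spelled TGTGGT, occurred in 17.2% against 16.8%. The last motif, of GATA factors, was AGATAA, at 13.8% against 11.2%. Other spellings of these motifs had been looked at before these letters were chosen. The matches are descriptions of letters in these windows.

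The defining markers of the spleen were present in every library, with Spic, a factor of red pulp macrophages, at 36.1 to 64.0 RPKM and Tlx1, a factor of splenic stroma, at 8.91 to 24.0. A10-FMT replicate 3 stood apart. It was the lowest of 18 libraries for all 30 T lineage genes, at 21.8 to 73.0% (median 32.5%) of the mean of A10-FMT replicates 1 and 2. The 20 genes of the B cell list stood at a median of 32.8% of that mean, the 41 further genes of receptor signalling at 55.3% and the 13 red pulp macrophage genes at 91.3%, while the 18 proliferation genes stood at 170% and the 19 erythroid genes at 190%. Con replicate 1 had the lowest T lineage level of its group (mean log2(RPKM + 1) of 30 genes 3.96, against 4.53 and 4.68) and the highest neutrophil level (8.25, against 6.52 and 4.38). Genes of the exocrine pancreas and the liver also varied between libraries, with list means of 0.897 to 10.2 and 0.761 to 4.09 on the log2(RPKM + 1) scale, and globins took 10.4 to 42.7% of the summed RPKM. That sum is per length and is not a share of reads. With RPKM multiplied by exon length, globin and exocrine pancreas genes together came to an estimated 2.66 to 11.0% of reads. The part of these differences in the results was not tested. In a bulk sample, fewer T cells and less T cell RNA per cell cannot be told apart. The labels do not state whether each library of a group came from its own animal, so p-values measure the spread between these samples only.

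**Figure D1:**
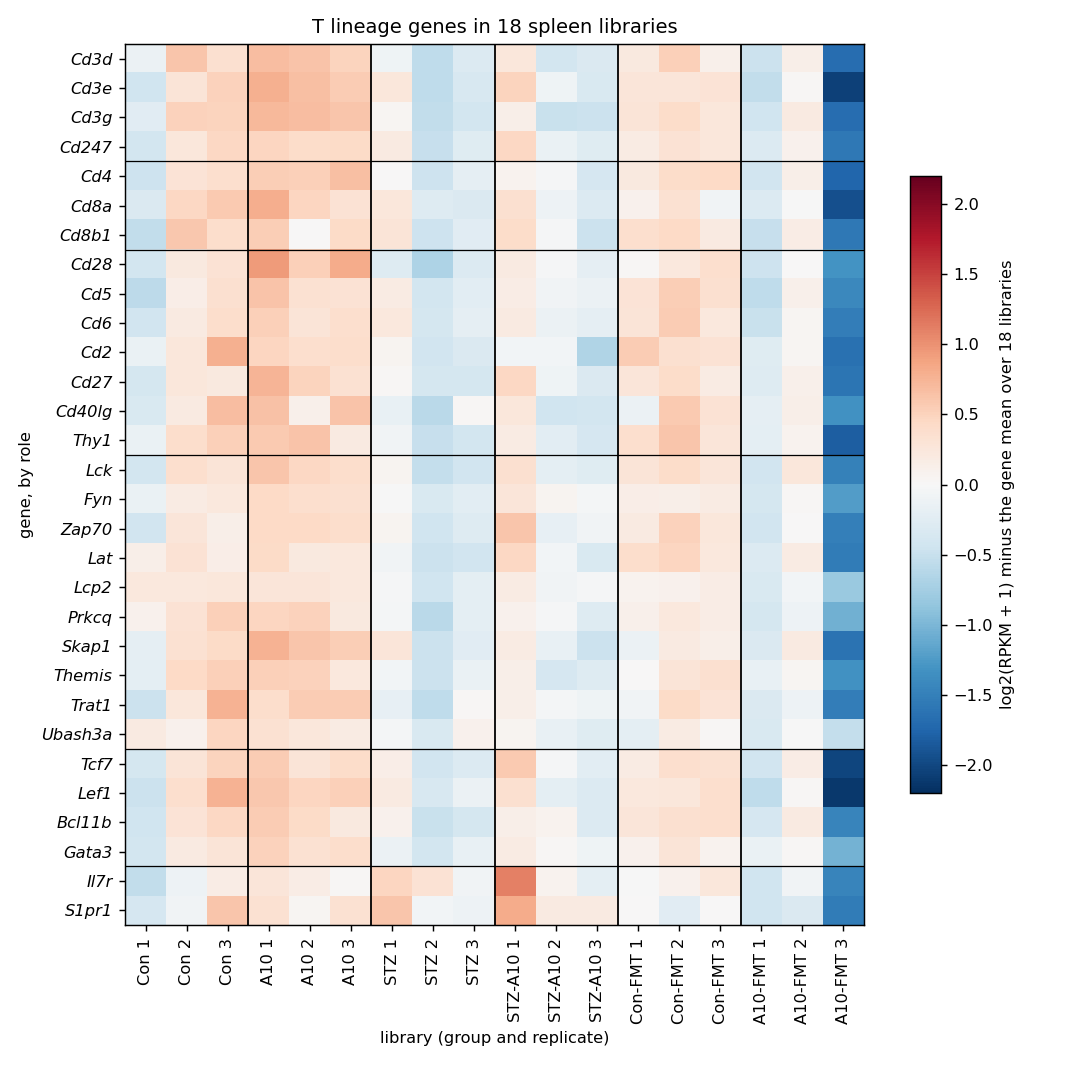
Each row is one of the 30 T lineage genes, ordered by role, and each column one of the 18 libraries; colour gives log2(RPKM + 1) minus the mean of the gene over the 18 libraries. A10-FMT replicate 3 is the lowest library for all 30 genes, and the 3 A10 libraries are mostly above the mean.

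Among the CD3 chains, Cd3g was the most abundant, with a mean of 62.5 RPKM over the 18 libraries, against 29.3 for Cd247, 26.4 for Cd3d and 25.9 for Cd3e. The RPKM of Cd3g was 48.7, 82.8 and 82.3 in Con, 95.5, 94.2 and 89.0 in A10 and 59.7, 39.5 and 43.7 in STZ. It measured 63.7, 41.3 and 41.4 in STZ-A10, 71.0, 77.3 and 69.0 in Con-FMT and 42.5, 66.8 and 17.5 in A10-FMT. The A10 libraries were the highest of all 18 and did not overlap those of any other group, the Con-FMT libraries lay above all STZ libraries, and Con replicate 1 lay among the STZ values. For Cd3e the values in RPKM were 17.3, 29.2 and 34.0 in Con, 41.9, 38.3 and 35.5 in A10 and 28.5, 15.8 and 18.4 in STZ. It reached 33.9, 22.2 and 18.7 in STZ-A10, 28.7, 28.7 and 29.5 in Con-FMT and 16.0, 24.3 and 4.96 in A10-FMT. Again the A10 libraries lay above all Con libraries, and STZ overlapped Con. Cd3d had group means of 30.8 ± 7.76 in Con, 37.9 ± 2.70 in A10, 19.8 ± 3.33 in STZ, 22.4 ± 6.11 in STZ-A10, 30.4 ± 4.75 in Con-FMT and 17.1 ± 10.02 in A10-FMT (RPKM ± SD, n = 3). Cd247 averaged 30.8 ± 9.07 in Con, 37.8 ± 0.957 in A10, 24.8 ± 6.62 in STZ, 28.7 ± 8.36 in STZ-A10, 33.2 ± 1.57 in Con-FMT and 20.3 ± 10.8 in A10-FMT (RPKM ± SD, n = 3). In all 4 chains the highest group mean was that of A10 and the lowest that of A10-FMT. Without A10-FMT replicate 3, the lowest mean for Cd3d, Cd3g and Cd247 was that of STZ.

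The co-receptors also had their lowest group means in A10-FMT. Cd4 stood, in RPKM, at 25.3, 43.3 and 45.9 in Con, 51.8, 51.2 and 55.9 in A10 and 35.2, 25.4 and 30.6 in STZ. Its values were 36.9, 34.6 and 27.1 in STZ-A10, 40.8, 46.6 and 47.9 in Con-FMT and 26.1, 38.4 and 9.79 in A10-FMT. Cd4, which marks helper T cells, was higher in every A10 library than in any Con library and higher in every Con-FMT library than in any STZ library. Cd8a had group means of 16.8 ± 5.38 in Con, 20.3 ± 3.62 in A10, 12.7 ± 3.15 in STZ, 13.7 ± 3.51 in STZ-A10, 14.96 ± 2.30 in Con-FMT and 9.03 ± 5.53 in A10-FMT (RPKM ± SD, n = 3). Cd8b1 averaged 21.5 ± 8.28 in Con, 23.4 ± 4.38 in A10, 16.9 ± 4.94 in STZ, 18.4 ± 5.74 in STZ-A10, 23.4 ± 2.09 in Con-FMT and 12.9 ± 7.56 in A10-FMT (RPKM ± SD, n = 3). These encode the alpha and beta chains of the co-receptor of cytotoxic T cells. The ratio of Cd4 to Cd8a, both in RPKM, ranged from 2.10 to 3.72 over the 18 libraries. Group means of this ratio were 2.29 ± 0.0794 (SD, n = 3) in Con, 2.68 ± 0.556 in A10, 2.44 ± 0.361 in STZ, 2.45 ± 0.337 in STZ-A10, 3.06 ± 0.575 in Con-FMT and 2.91 ± 0.532 in A10-FMT. All Con-FMT and all A10-FMT libraries were above the highest Con ratio of 2.38, which was noted after the values were seen and was not tested. This holds for Cd8a alone. From Con to Con-FMT the mean of Cd8a was lower (16.8 and 14.96) while that of Cd8b1 was higher (21.5 and 23.4). A ratio of Cd4 to Cd8b1 was not calculated, so a shift between helper and cytotoxic T cells cannot be read from these values.

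The surface receptors spanned a range of levels. The RPKM of Cd2 was 60.7, 80.0 and 116 in Con, 93.8, 87.6 and 88.4 in A10 and 70.5, 49.9 and 53.9 in STZ. It measured 64.5, 64.7 and 42.5 in STZ-A10, 99.4, 86.9 and 84.5 in Con-FMT and 55.9, 69.5 and 21.0 in A10-FMT. Cd2, an adhesion receptor that binds CD48, overlapped between STZ and Con and lay higher in every Con-FMT than in any STZ library. For Thy1 the values in RPKM were 45.8, 66.1 and 73.3 in Con, 75.5, 78.2 and 57.9 in A10 and 47.6, 35.1 and 38.0 in STZ. It reached 57.7, 42.9 and 38.7 in STZ-A10, 65.6, 77.4 and 60.7 in Con-FMT and 43.5, 53.3 and 13.6 in A10-FMT. Thy1, a classical surface marker of mouse T cells, gave the largest fitted difference of any of the 30 genes between Con-FMT and STZ. Cd27, a co-stimulatory receptor, had group means of 20.5 ± 4.89 in Con, 28.9 ± 4.46 in A10, 16.5 ± 3.02 in STZ, 20.4 ± 6.17 in STZ-A10, 24.1 ± 1.93 in Con-FMT and 14.3 ± 7.92 in A10-FMT (RPKM ± SD, n = 3). Cd5, which dampens receptor signalling, had group means of 16.8 ± 5.46 in Con, 22.4 ± 2.92 in A10, 14.9 ± 3.37 in STZ, 16.3 ± 1.89 in STZ-A10, 22.0 ± 2.14 in Con-FMT and 11.4 ± 6.17 in A10-FMT (RPKM ± SD, n = 3). Its relative Cd6 had 13.8 ± 4.01 in Con, 17.2 ± 1.46 in A10, 12.0 ± 2.91 in STZ, 12.6 ± 2.05 in STZ-A10, 16.9 ± 2.31 in Con-FMT and 8.65 ± 4.73 in A10-FMT (RPKM ± SD, n = 3). For Cd5 and Cd6 alike the Con-FMT mean was above the Con mean, with overlapping libraries. Cd28 stood, in RPKM, at 6.41, 10.4 and 11.2 in Con, 17.8, 13.1 and 16.1 in A10 and 7.03, 5.08 and 6.97 in STZ. Its values were 10.2, 8.64 and 7.57 in STZ-A10, 8.92, 10.5 and 11.7 in Con-FMT and 6.09, 8.78 and 2.91 in A10-FMT. All A10 values of Cd28, the main co-stimulatory receptor of naive T cells, were above all values of the other groups. Cd40lg, the ligand with which helper T cells stimulate B cells, had 4.76 ± 1.97 in Con, 5.78 ± 1.34 in A10, 3.17 ± 0.871 in STZ, 3.35 ± 1.25 in STZ-A10, 4.94 ± 1.41 in Con-FMT and 2.84 ± 1.73 in A10-FMT (RPKM ± SD, n = 3). All 7 surface receptors had their lowest group mean in A10-FMT.

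Among the signalling genes, Lck and Lat were the most abundant. The RPKM of Lck was 41.1, 70.6 and 66.1 in Con, 83.5, 74.6 and 71.8 in A10 and 56.9, 37.5 and 40.6 in STZ. It measured 69.9, 47.0 and 45.0 in STZ-A10, 66.5, 72.2 and 65.3 in Con-FMT and 40.5, 65.1 and 18.7 in A10-FMT. Every A10 library lay above every Con library, and every Con-FMT library above every STZ library. For Lat the values in RPKM were 58.6, 67.2 and 59.5 in Con, 72.4, 62.7 and 63.2 in A10 and 50.7, 38.2 and 39.9 in STZ. It reached 73.6, 51.6 and 42.1 in STZ-A10, 70.5, 75.0 and 63.3 in Con-FMT and 43.2, 60.8 and 17.9 in A10-FMT. Lat was one of 4 members whose STZ libraries all lay below the Con libraries. Lcp2 stood, in RPKM, at 32.5, 32.8 and 32.8 in Con, 33.6, 33.5 and 32.7 in A10 and 27.0, 20.1 and 23.6 in STZ. Its values were 31.5, 25.95 and 27.0 in STZ-A10, 29.2, 29.6 and 31.1 in Con-FMT and 21.6, 26.3 and 15.2 in A10-FMT. The 3 Con values of Lcp2 were nearly equal, all STZ values lay below them, and Con-FMT lay between. Lcp2 is also expressed in platelets and myeloid cells, whose lists are given below. The RPKM of Prkcq was 19.1, 22.7 and 26.1 in Con, 25.2, 25.8 and 21.1 in A10 and 17.4, 11.5 and 15.3 in STZ. It measured 19.1, 17.6 and 14.6 in STZ-A10, 19.5, 21.2 and 20.1 in Con-FMT and 13.5, 16.5 and 8.06 in A10-FMT. Prkcq, which encodes protein kinase C theta, was lower in every STZ than in any Con library and higher in every Con-FMT than in any STZ library. Fyn had group means of 28.2 ± 4.04 in Con, 34.6 ± 1.12 in A10, 23.0 ± 2.71 in STZ, 28.3 ± 3.10 in STZ-A10, 29.3 ± 0.620 in Con-FMT and 19.1 ± 8.19 in A10-FMT (RPKM ± SD, n = 3). Fyn, a Src family kinase like Lck, was higher in every A10 than in any Con library. Zap70 averaged 14.2 ± 3.51 in Con, 19.2 ± 0.369 in A10, 12.1 ± 2.34 in STZ, 15.9 ± 5.36 in STZ-A10, 17.8 ± 2.24 in Con-FMT and 9.52 ± 4.93 in A10-FMT (RPKM ± SD, n = 3). Skap1, an adaptor that couples the receptor to integrins, had group means of 12.5 ± 2.94 in Con, 17.2 ± 1.45 in A10, 9.80 ± 2.95 in STZ, 9.75 ± 2.47 in STZ-A10, 11.3 ± 1.45 in Con-FMT and 7.90 ± 4.86 in A10-FMT (RPKM ± SD, n = 3). The A10 mean was the highest for both Zap70 and Skap1. Themis, required in thymocyte selection, had group means of 5.58 ± 1.68 in Con, 6.31 ± 0.811 in A10, 3.67 ± 0.684 in STZ, 3.87 ± 0.953 in STZ-A10, 5.35 ± 0.765 in Con-FMT and 3.19 ± 1.80 in A10-FMT (RPKM ± SD, n = 3). Trat1, a transmembrane adaptor that associates with the receptor, had 7.803 ± 3.59 in Con, 9.35 ± 0.711 in A10, 5.30 ± 1.26 in STZ, 6.31 ± 0.607 in STZ-A10, 7.57 ± 1.49 in Con-FMT and 4.07 ± 2.22 in A10-FMT (RPKM ± SD, n = 3). Both were highest in A10 and lowest in A10-FMT on average. For Ubash3a the values in RPKM were 5.85, 5.39 and 7.31 in Con, 6.49, 6.07 and 5.75 in A10 and 4.77, 3.70 and 5.36 in STZ. It reached 5.18, 4.35 and 3.95 in STZ-A10, 4.11, 5.79 and 5.08 in Con-FMT and 3.71, 4.92 and 3.15 in A10-FMT. Ubash3a, a phosphatase-like protein that restrains receptor signalling, was lower in every STZ than in any Con library and was the member least reduced in A10-FMT replicate 3, at 73.0% of the mean of the other two.

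The transcription factors Tcf7 and Lef1, partners of beta-catenin that maintain naive T cells, were higher than Bcl11b and Gata3. Tcf7 stood, in RPKM, at 31.7, 51.0 and 58.5 in Con, 61.7, 51.0 and 55.7 in A10 and 46.3, 30.9 and 33.5 in STZ. Its values were 62.4, 41.0 and 35.1 in STZ-A10, 47.0, 54.1 and 53.0 in Con-FMT and 30.9, 46.6 and 9.50 in A10-FMT. Con overlapped every other group for Tcf7, and STZ-A10 replicate 1 was the highest of all libraries. Lef1 had group means of 20.04 ± 8.39 in Con, 23.5 ± 0.965 in A10, 15.1 ± 3.20 in STZ, 15.7 ± 4.39 in STZ-A10, 19.6 ± 1.06 in Con-FMT and 9.92 ± 6.74 in A10-FMT (RPKM ± SD, n = 3). Bcl11b, which guards T cell identity, had group means of 5.03 ± 1.78 in Con, 6.16 ± 0.871 in A10, 3.59 ± 1.06 in STZ, 4.35 ± 0.827 in STZ-A10, 5.78 ± 0.261 in Con-FMT and 3.14 ± 2.13 in A10-FMT (RPKM ± SD, n = 3). Both again ranked A10 highest on average. The RPKM of Gata3 was 1.21, 2.35 and 2.58 in Con, 3.17, 2.70 and 2.82 in A10 and 1.68, 1.2 and 1.61 in STZ. It measured 2.31, 1.98 and 1.73 in STZ-A10, 2.11, 2.57 and 2.09 in Con-FMT and 1.63, 1.97 and 0.430 in A10-FMT. Gata3, a factor of T cell commitment and of type 2 helper cells, was the lowest member, and all of its A10 values lay above all of its Con values.

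Il7r and S1pr1 departed from the other 28 genes. For Il7r the values in RPKM were 10.8, 15.02 and 18.4 in Con, 19.7, 18.3 and 16.6 in A10 and 22.8, 20.5 and 15.3 in STZ. It reached 36.4, 17.3 and 13.9 in STZ-A10, 16.1, 17.4 and 19.4 in Con-FMT and 11.7, 15.3 and 5.34 in A10-FMT. Il7r, the receptor for the survival cytokine IL-7, was higher in every A10 than in 2 of 3 Con libraries, overlapped between STZ and Con, and was highest in STZ-A10 replicate 1. S1pr1 stood, in RPKM, at 52.7, 64.4 and 105 in Con, 86.6, 70.0 and 86.7 in A10 and 105, 65.1 and 63.4 in STZ. Its values were 121, 78.5 and 78.4 in STZ-A10, 68.6, 57.5 and 68.4 in Con-FMT and 49.96, 54.9 and 22.7 in A10-FMT. S1pr1, the receptor by which lymphocytes leave lymphoid tissue along a gradient of sphingosine 1-phosphate, was the most abundant member on average (72.1 RPKM) and is also expressed by endothelium and B cells. Both had their highest group mean in STZ-A10, and all A10-FMT values lay below all STZ values for both. For Il7r the closest pair was 15.27 in A10-FMT and 15.30 in STZ. Relative to Cd3e, the RPKM of Il7r was 0.623, 0.515 and 0.541 in Con, 0.470, 0.478 and 0.468 in A10 and 0.800, 1.30 and 0.832 in STZ. The ratio was 1.07, 0.780 and 0.745 in STZ-A10, 0.561, 0.606 and 0.657 in Con-FMT and 0.730, 0.628 and 1.08 in A10-FMT. All STZ and STZ-A10 ratios lay above all Con, A10 and Con-FMT ratios. S1pr1 relative to Cd3e averaged 2.78 ± 0.491 (SD, n = 3) in Con, 2.11 ± 0.307 in A10, 3.75 ± 0.353 in STZ, 3.77 ± 0.367 in STZ-A10, 2.24 ± 0.208 in Con-FMT and 3.32 ± 1.17 in A10-FMT. These ratios were chosen after the values were seen and were not tested.

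**Figure D2:**
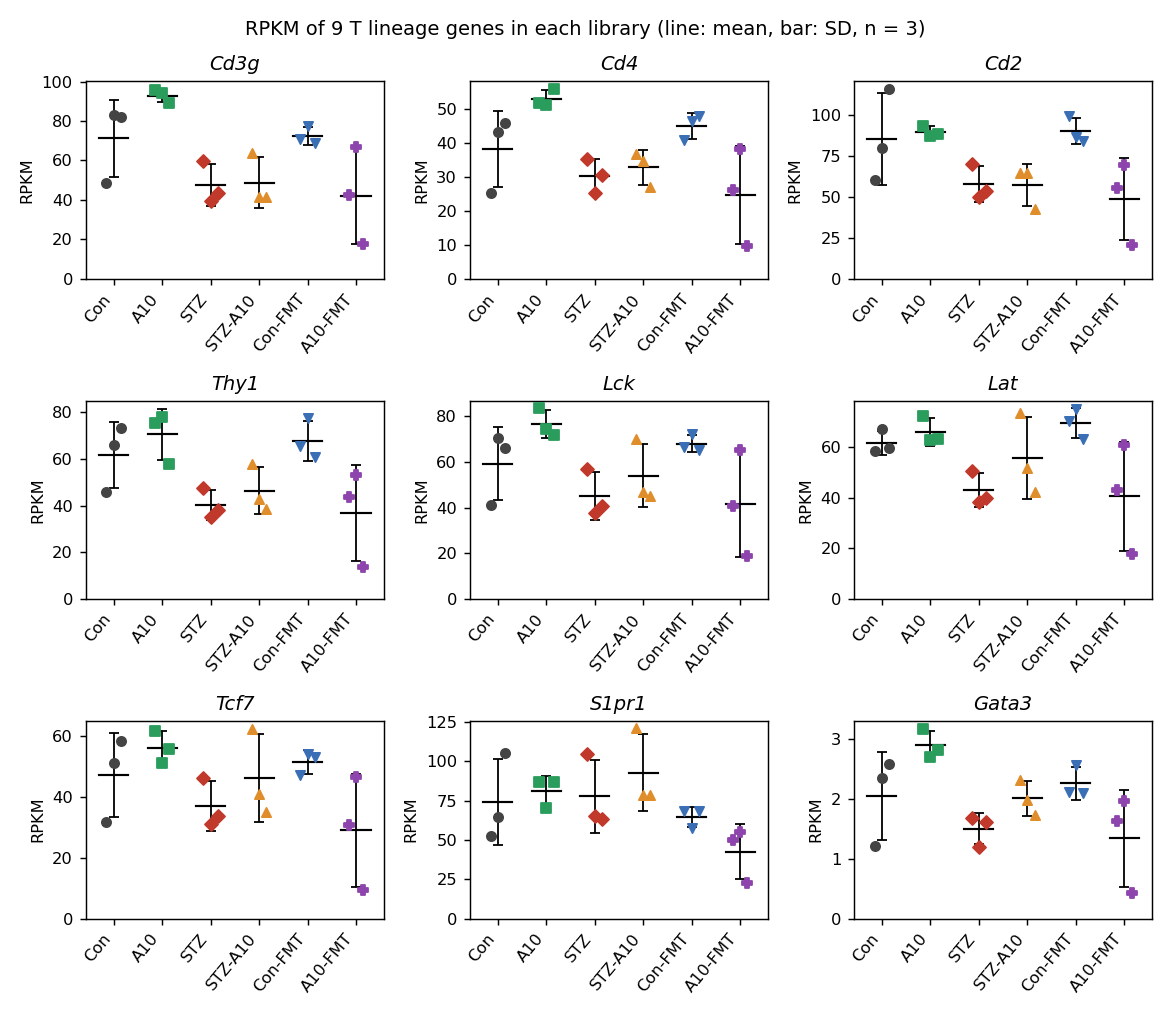
Points are the RPKM of the 8 most abundant T lineage genes and of Gata3, the least abundant, in each of 18 libraries; the line is the group mean and the bar the SD of 3 libraries. For Cd3g all A10 values lie above all other libraries, and the mean of S1pr1 is 77.7 in STZ and 74.0 in Con.

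**Figure D3:**
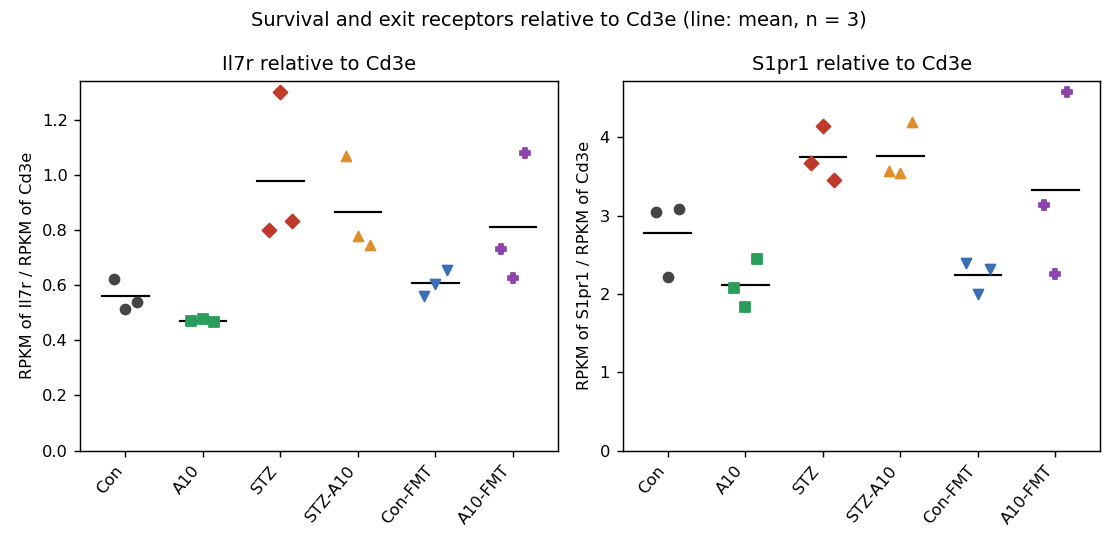
Points are the RPKM of Il7r (left) and S1pr1 (right) divided by that of Cd3e in each library, and lines are group means of 3 libraries. All Il7r ratios of STZ and STZ-A10 (0.745 to 1.30) lie above those of Con, A10 and Con-FMT (0.468 to 0.657).

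The effect of STZ was compared with Con. Levels of 28 of the 30 genes were lower on average in STZ and 2 were higher, with a median difference of -0.35 on the log2(RPKM + 1) scale, against -0.01 over all 12905 genes. None of the 30 passed an adjusted p of 0.05 in limma, where 0.163% of all genes did, and 3 were lower at an unadjusted p under 0.05 (Lcp2, Prkcq and Ubash3a). At that level 6.44% of all genes were lower. Every STZ library was lower than every Con library for 4 members (Lat, Lcp2, Prkcq and Ubash3a), which is 13.3% of the members, against 7.07% of all genes. The fitted differences were -0.46 (SE 0.15, adjusted p 0.197) for Lcp2, -0.59 (SE 0.20, adjusted p 0.240) for Prkcq and -0.52 (SE 0.30, adjusted p 0.590) for Lat. For the CD3 chains Cd3d and Cd3g they were -0.59 (SE 0.33, adjusted p 0.568) and -0.55 (SE 0.35, adjusted p 0.630). Il7r gave 0.40 (SE 0.33, adjusted p 0.754) and S1pr1 0.09 (SE 0.31, adjusted p 0.960). Without A10-FMT replicate 3, whose spread enters the shared fit, Lcp2 passed with an adjusted p of 0.0437, and so did 1.82% of all genes in that fit (234 of 12879). The median over the 30 genes was -0.59 without Con replicate 1, -0.19 without Con replicate 3 and -0.23 without STZ replicate 2.

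Lists of other cell types are set beside the same comparison. Of the 20 B cell genes, 15 were lower and 5 higher in STZ (median -0.19). All 14 genes of the natural killer and cytotoxic list were lower in STZ (median -0.56, 7 at an unadjusted p under 0.05). All 15 neutrophil genes were lower (median -2.02), although the median was -1.08 without Con replicate 1, which held the highest neutrophil level. All 12 platelet genes (median -1.46) and 17 of 18 liver genes (median -2.25, 16 at an unadjusted p under 0.05) were lower as well. All 13 red pulp macrophage genes (median 0.41) and all 18 exocrine pancreas genes (median 3.10, and 1.46 without Con replicate 3) were higher. Of all these lists 1 gene passed, the platelet collagen receptor Gp6, with a mean of 15.5 ± 6.06 RPKM in Con (SD, n = 3) against 4.44 ± 3.43 in STZ (difference -1.72, SE 0.32, adjusted p 0.0449). The part of these cells in the T lineage values was not tested.

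AOS alone was compared with Con in animals without STZ. A10 had the highest group mean for 24 of the 30 genes. Levels of 29 were higher than in Con, with a median difference of 0.31 against 0.05 over all genes. None passed (0.00775% of all genes did), and 1, Cd28, was higher at an unadjusted p under 0.05, a level at which 3.56% of all genes were higher. All A10 libraries lay above all Con libraries for 10 members (Cd3e, Cd3g, Cd4, Cd28, Cd27, Lck, Fyn, Zap70, Skap1 and Gata3), which is 33.3%, against 11.7% of all genes. Cd28 gave 0.71 (SE 0.27, adjusted p 0.761) and Cd3e 0.56 (SE 0.40, adjusted p 0.989). The median was 0.07 without Con replicate 1 and 0.49 without Con replicate 3, so the size of this difference rested on single control libraries.

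In the same comparison, the list of T cell activation and regulation lay higher as well. Its mean log2(RPKM + 1) was 3.45, 3.35 and 3.46 in A10 and 2.74, 3.19 and 3.005 in Con, with Con replicate 1 the lowest. Of its 22 tested genes, 21 were higher in A10, with a median of 0.49, and none passed the adjusted threshold. At an unadjusted p under 0.05, 10 were higher, beside 3.56% of all genes. These included the inhibitory receptors Lag3 (7.58 against 3.43 RPKM, difference 0.96, SE 0.18, adjusted p 0.125), Tigit (5.78 against 2.53 RPKM, difference 1.00, SE 0.20, adjusted p 0.158) and Pdcd1 (3.71 against 2.07 RPKM, difference 0.63, SE 0.16, adjusted p 0.350). Foxp3, the factor of regulatory T cells, stood at 4.48 against 2.95 RPKM and Tbx21, the factor of type 1 helper and cytotoxic cells, at 9.16 against 5.03 RPKM. These 5 genes were picked from the list after their values were seen. Among the lists of other cells, all 15 neutrophil genes were lower in A10 than in Con (median -1.89, all 15 at an unadjusted p under 0.05), and without Con replicate 1 the median was -0.89 with 1 gene at that level. Of the erythroid genes 18 of 19 were lower (median -0.62), and all 20 B cell genes were higher (median 0.19), of which 9 were still higher without Con replicate 1. The part of these cells in the T lineage values was not tested.

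STZ was also compared in animals given AOS, STZ-A10 against A10. Levels of 28 members were lower in STZ-A10, with a median difference of -0.49 against -0.03 over all genes, and the exceptions were again Il7r and S1pr1. None passed (0.0542% of all genes did), and 6 were lower at an unadjusted p under 0.05, a level at which 6.42% of all genes were lower. All STZ-A10 libraries lay below all A10 libraries for 20 members, which is 66.7%, against 14.9% of all genes. Cd3g gave -0.94 (SE 0.35, adjusted p 0.322), Cd3d -0.76 (SE 0.33, adjusted p 0.443) and Prkcq -0.47 (SE 0.20, adjusted p 0.435). Il7r gave 0.18 (SE 0.33, adjusted p 0.930), which turned to -0.21 without STZ-A10 replicate 1. In that fit S1pr1 was lower too, as were all 30 members, with a median of -0.60. The 14 natural killer and cytotoxic genes were all lower here too (median -0.72, 12 at an unadjusted p under 0.05). Of the 20 B cell genes, 17 were lower and 3 higher (median -0.22). All 18 exocrine pancreas genes were higher (median 4.44), 16 of them at an unadjusted p under 0.05, where 3.79% of all genes were higher. All 13 red pulp macrophage genes were higher as well (median 0.30), while all 18 liver genes (median -1.08) and all 12 platelet genes (median -0.37) were lower. What these cells contributed to the T lineage values was not tested.

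Adding AOS to STZ, STZ-A10 against STZ, gave a median difference of 0.20, against 0.03 over all genes, with 28 members higher. None passed (0.00775% of all genes did), and none reached an unadjusted p under 0.05. All STZ-A10 libraries lay above all STZ libraries for 2 members, Cd28 and Gata3, or 6.67%, against 3.29% of all genes. The median was 0.03 without STZ-A10 replicate 1 and 0.06 without STZ replicate 2. Whether the effect of STZ differed with AOS was tested as the interaction, for which 25 of 30 estimates were negative with a median of -0.14 (-0.02 over all genes). No member and no other gene passed (0.0% of all genes), no member had an unadjusted p under 0.05, and over all genes 156 were higher and 213 lower at that level. The interaction median was 0.09 without Con replicate 1. The comparisons of STZ with Con, of A10 with Con and of STZ-A10 with A10 and STZ share groups, so their values are given side by side and are not independent of each other.

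**Figure D4:**
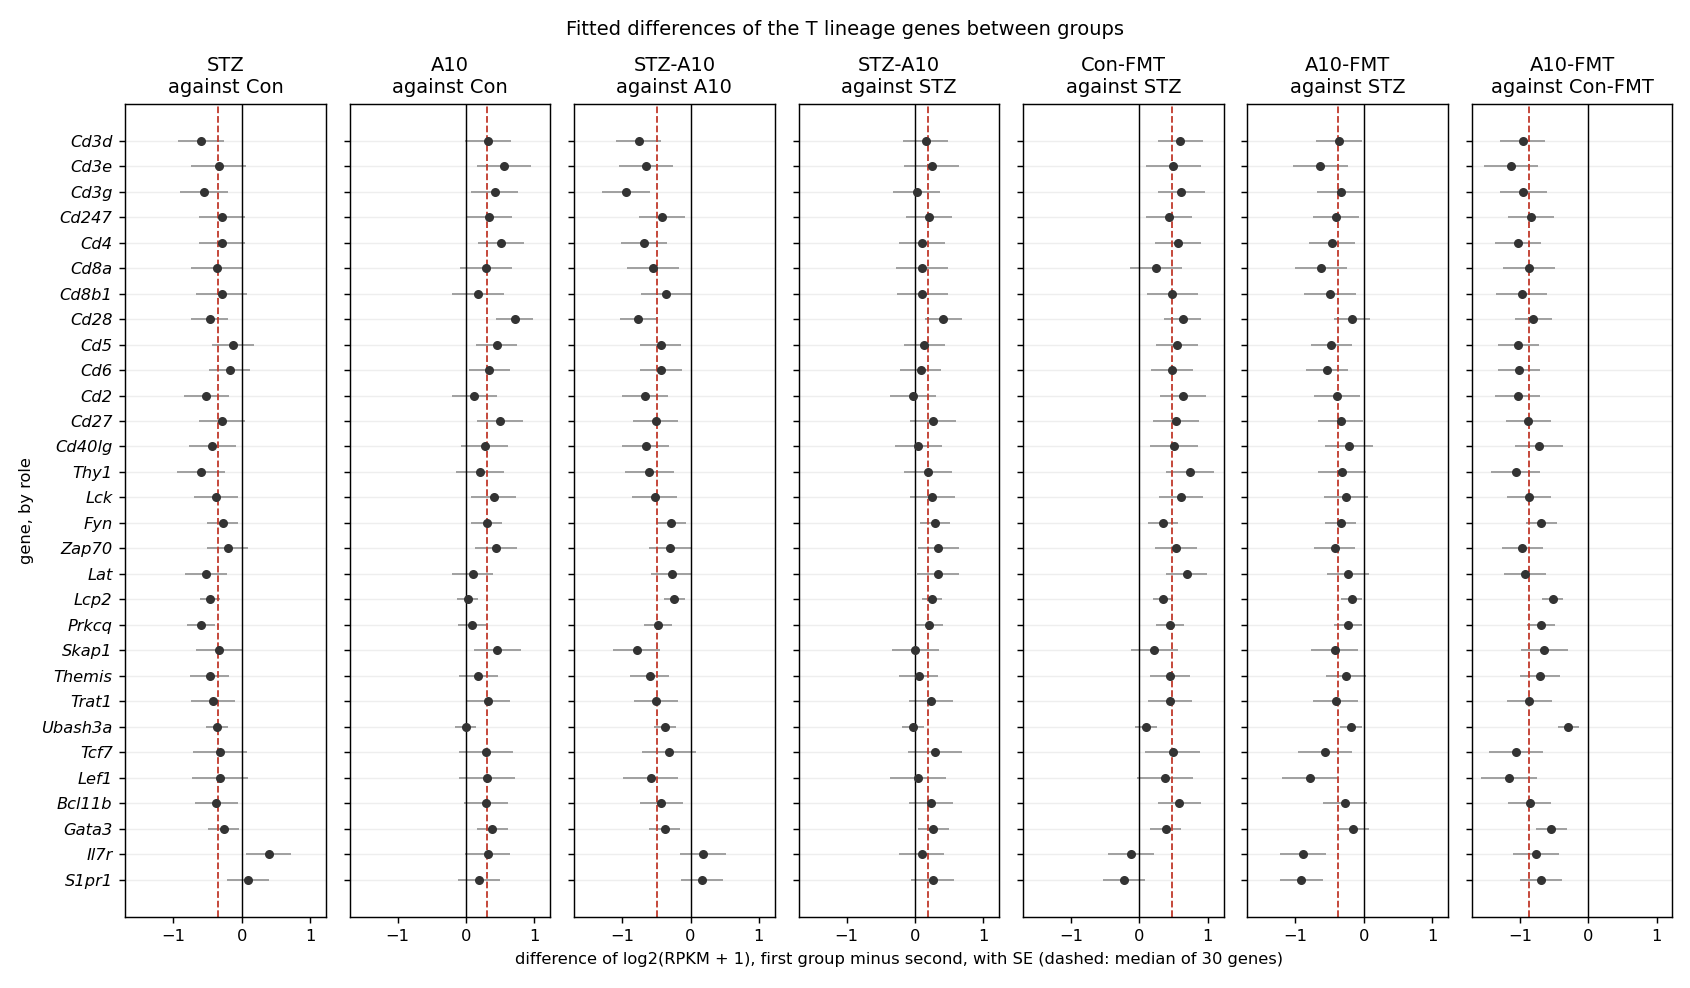
Points are the fitted differences of log2(RPKM + 1) of the 30 T lineage genes in 7 comparisons, first group minus second, bars are 1 SE, and the dashed line is the median of the 30. The medians run from -0.87 (A10-FMT against Con-FMT) to 0.48 (Con-FMT against STZ), and Il7r and S1pr1 lie apart from the rest in the comparisons of STZ with Con and of STZ-A10 with A10.

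Transplant from control donors was compared with STZ alone. The Con-FMT libraries were close to each other, with T lineage levels (mean log2(RPKM + 1) of 30 genes) of 4.41, 4.48 and 4.58, all above the STZ levels of 3.82, 4.01 and 4.32. Levels of 28 members were higher in Con-FMT, with a median difference of 0.48 against 0.00 over all genes, and Il7r and S1pr1 were the exceptions. None passed (0.00775% of all genes did), and 4 were higher at an unadjusted p under 0.05, a level at which 2.66% of all genes were higher. All Con-FMT libraries lay above all STZ libraries for 21 members, which is 70.0%, against 6.94% of all genes. Thy1 gave 0.74 (SE 0.35, adjusted p 0.940), Cd3g 0.61 (SE 0.35, adjusted p 0.964) and Il7r -0.13 (SE 0.33, adjusted p 0.987). Without STZ replicate 2 the median over the 30 genes was 0.33, and without STZ replicate 1 it was 0.65. The NK and cytotoxic list had 13 of 14 genes higher (median 0.53, 7 at an unadjusted p under 0.05). Of the 20 B cell genes, 15 were higher and 5 lower (median 0.31). All 12 platelet genes were higher (median 0.86, 10 at an unadjusted p under 0.05), and 12 of 13 red pulp macrophage genes were lower (median -0.29). What these cells contributed to the T lineage values was not tested.

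Transplant from AOS-dosed donors was compared with STZ in the same way. Levels of all 30 members were lower in A10-FMT, with a median difference of -0.38 against -0.15 over all genes. None passed (0.00775% of all genes did), and 2, S1pr1 and Il7r, were lower at an unadjusted p under 0.05, a level at which 15.2% of all genes were lower. Those 2 were also the members with all A10-FMT libraries below all STZ libraries, 6.67% of the members against 12.1% of all genes. S1pr1 gave -0.91 (SE 0.31, adjusted p 0.238), Il7r -0.89 (SE 0.33, adjusted p 0.248), Lef1 -0.79 (SE 0.41, adjusted p 0.315) and Cd3g -0.34 (SE 0.35, adjusted p 0.563). Without A10-FMT replicate 3 the median over the 30 genes was 0.06, 21 were higher and 9 lower, and Cd3g stood at 0.18, so the direction rested on that library. With the libraries centred on the median of the tested genes, the median difference over all genes went from -0.15 to 0.02 and that of the members to -0.21. Of the other cell lists, 19 of 20 B cell genes were lower in A10-FMT than in STZ (median -0.50), and without A10-FMT replicate 3 the median was 0.06. All 13 red pulp macrophage genes were lower (median -0.49, 8 at an unadjusted p under 0.05), also without that library (median -0.38). All 19 erythroid genes (median 0.74) and 17 of 18 liver genes (median 2.56, 15 at an unadjusted p under 0.05) were higher, with medians of 0.44 and 2.17 without it. The part of these cells in the T lineage values was not tested.

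The transplant groups were compared with each other. All 30 members were lower in A10-FMT than in Con-FMT, with a median difference of -0.87 against -0.17 over all genes. None passed, nor did any gene (0.0% of all genes), while 27 members were lower at an unadjusted p under 0.05, and over all genes 2590 were lower and 450 higher at that level. All A10-FMT libraries lay below all Con-FMT libraries for 24 members, which is 80.0%, against 23.9% of all genes. Lcp2 gave -0.52 (SE 0.15, adjusted p 0.204), Cd5 -1.02 (SE 0.30, adjusted p 0.204), Prkcq -0.69 (SE 0.20, adjusted p 0.204) and Lef1 -1.16 (SE 0.41, adjusted p 0.204). Without A10-FMT replicate 3 the median was -0.42, with all 30 still lower and none past the threshold. Without A10-FMT replicate 2, 27 members passed (lowest adjusted p 0.0351) and the median was -1.23, in a fit that called 20.4% of all genes (2625 of 12891). All 20 B cell genes (median -0.72) and all 41 further genes of receptor signalling (median -0.53) were lower as well, and all 18 proliferation genes (median 0.47) were higher. These lists kept their directions for every gene without A10-FMT replicate 3, with medians of -0.18, -0.24 and 0.21. The 3 comparisons among STZ, Con-FMT and A10-FMT share libraries and are not independent.

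Further genes of T cell receptor signalling, 41 in all, were followed beside the members. In STZ against Con, 34 were lower and 7 higher (median -0.19), none passed, and 5 were lower and 1 higher at an unadjusted p under 0.05. At that level 6.44% of all genes were lower and 4.63% higher. Dok2, an adaptor that restrains signalling and is also found in myeloid cells, averaged 10.4 ± 3.64 RPKM in STZ and 22.4 ± 7.69 in Con (difference -1.04, SE 0.24, adjusted p 0.0755). Ubash3b, the broadly expressed relative of Ubash3a, averaged 7.62 ± 1.38 RPKM in STZ and 13.5 ± 2.11 in Con (difference -0.76, SE 0.16, adjusted p 0.0642). All STZ values of both lay below all Con values. The phosphatase gene Ptpn22 averaged 50.4 ± 15.7 RPKM in STZ and 27.5 ± 4.29 in Con (difference 0.81, SE 0.26, adjusted p 0.191). Plcg1, the phospholipase that Lat recruits in T cells, averaged 12.0 ± 2.10 RPKM in STZ and 10.2 ± 3.75 in Con (difference 0.26, SE 0.24, adjusted p 0.787). All STZ values of Ptpn22 were above all Con values. In A10-FMT against STZ, 39 of the 41 were lower (median -0.34), against 28 (median -0.06) without A10-FMT replicate 3. Ptpn22 averaged 23.4 ± 5.81 RPKM in A10-FMT and 50.4 ± 15.7 in STZ (difference -1.06, SE 0.26, adjusted p 0.137). All A10-FMT values of Ptpn22 were below all STZ values. Dok2 averaged 11.7 ± 2.99 RPKM in A10-FMT and 10.4 ± 3.64 in STZ (difference 0.18, SE 0.24, adjusted p 0.665). Chuk, a kinase of the NF-kappaB pathway, averaged 21.3 ± 0.761 RPKM in A10-FMT and 20.9 ± 1.06 in STZ (difference 0.03, SE 0.09, adjusted p 0.869). These last genes were the only ones of the 41 with a higher mean.

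Genes of naive T cells and their homing, 10 in all, were lower in 9 cases in STZ than in Con (median -0.33), and none passed or reached an unadjusted p under 0.05. Dapl1 averaged 8.37 ± 4.46 RPKM in STZ and 11.6 ± 3.66 in Con (difference -0.48, SE 0.38, adjusted p 0.735). Klf2, the factor that drives S1pr1 transcription, averaged 70.0 ± 18.6 RPKM in STZ and 97.1 ± 29.5 in Con (difference -0.45, SE 0.31, adjusted p 0.679). Igfbp4 averaged 105 ± 24.1 RPKM in STZ and 87.7 ± 16.1 in Con (difference 0.26, SE 0.23, adjusted p 0.781). All 10 were lower in A10-FMT than in STZ (median -0.45), and 7 were lower (median -0.08) without A10-FMT replicate 3. Satb1, an organiser of chromatin in T cells, averaged 15.4 ± 8.32 RPKM in A10-FMT and 23.3 ± 3.77 in STZ (difference -0.72, SE 0.32, adjusted p 0.280). Igfbp4 averaged 69.9 ± 22.3 RPKM in A10-FMT and 105 ± 24.1 in STZ (difference -0.62, SE 0.23, adjusted p 0.250).

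On the activation and regulation list, 15 of 22 genes were lower and 7 higher in STZ than in Con (median -0.17), and none passed. Bcl6, the factor of follicular helper T cells and germinal centre B cells, averaged 10.5 ± 1.39 RPKM in STZ and 16.1 ± 1.98 in Con (difference -0.57, SE 0.27, adjusted p 0.440). Cxcr3, a chemokine receptor of type 1 helper cells, averaged 6.80 ± 1.80 RPKM in STZ and 9.68 ± 2.16 in Con (difference -0.46, SE 0.30, adjusted p 0.644). The STZ values of Bcl6 lay below those of Con, while Cxcr3 overlapped. The inhibitory receptor gene Ctla4 averaged 5.04 ± 1.28 RPKM in STZ and 3.88 ± 1.22 in Con (difference 0.31, SE 0.27, adjusted p 0.759). Tnfrsf4, which encodes OX40, averaged 8.29 ± 1.72 RPKM in STZ and 6.48 ± 1.15 in Con (difference 0.31, SE 0.23, adjusted p 0.717). In A10-FMT against STZ, 19 were lower and 3 higher (median -0.25), while without A10-FMT replicate 3 the numbers were 13 and 9 (median -0.02). Tnfrsf4 averaged 4.91 ± 2.34 RPKM in A10-FMT and 8.29 ± 1.72 in STZ (difference -0.71, SE 0.23, adjusted p 0.230). Cxcr5, the receptor that guides cells into follicles, averaged 48.8 ± 21.4 RPKM in A10-FMT and 74.8 ± 19.6 in STZ (difference -0.69, SE 0.29, adjusted p 0.269). Tbx21 averaged 4.71 ± 2.50 RPKM in A10-FMT and 3.64 ± 1.01 in STZ (difference 0.22, SE 0.27, adjusted p 0.639).

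The constant genes of the receptor chains themselves (Trac, Trbc1, Trbc2, Trdc, Trgc1 and Trgc2) had no line in the table and were not analysed here. Genes of immature thymocytes were at the bottom of the scale. Rag1, part of the recombinase, stood at 0 to 0.180 RPKM, Rag2 at 0 to 0.0800 and Ptcra, the pre-receptor alpha chain, at 0 to 0.12. Of the 7 thymocyte genes 3 passed the filter, and none of them passed the threshold in STZ against Con. Dntt, the terminal transferase of immature lymphocytes of both lineages, stood at 1.76, 1.58 and 0.710 RPKM in Con and 0.140, 0.1 and 0.270 RPKM in STZ, without overlap between these groups (difference -0.98, SE 0.21, adjusted p 0.0635), and is singled out after its values were seen. It passed the filter through libraries of other groups, as no STZ library reached 1 RPKM. The precision of values that low is not known, so its adjusted p is given as a description.

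The T lineage level moved with the B cell level from library to library. On the log2(RPKM + 1) scale the mean of the 30 T lineage genes minus the mean of the 20 B cell genes lay between -2.71 and -2.17 in all 18 libraries, while the T lineage mean itself ran from 2.74 to 4.80. The 2.74 was that of A10-FMT replicate 3, and the next lowest T lineage mean was 3.82, in STZ replicate 2. Group means of this difference were -2.37 ± 0.119 (SD, n = 3) in Con, -2.26 ± 0.130 in A10, -2.47 ± 0.216 in STZ, -2.48 ± 0.114 in STZ-A10, -2.28 ± 0.0951 in Con-FMT and -2.40 ± 0.173 in A10-FMT. The STZ-A10 values lay below all A10 and all Con-FMT values, every other pair of groups overlapped, and A10-FMT replicate 3, at -2.23, was inside the range of the other libraries.

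**Figure D5:**
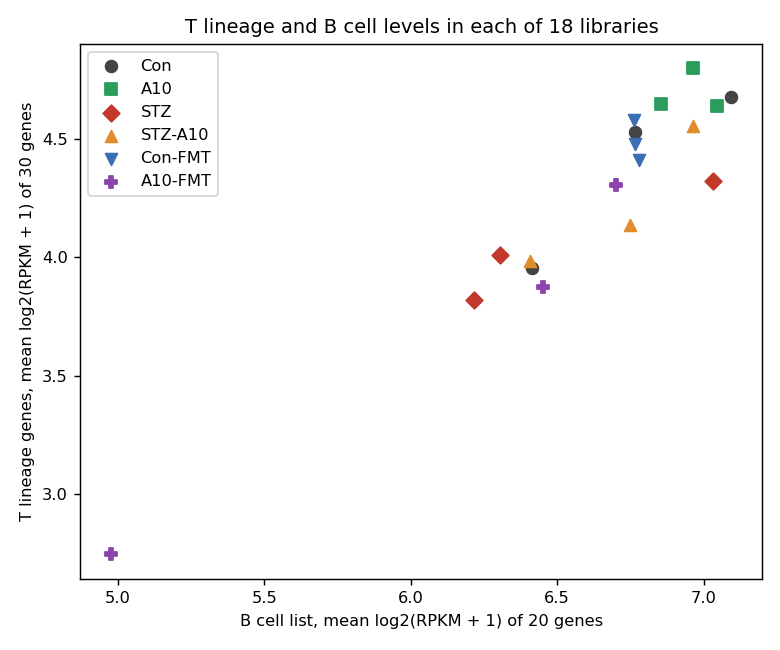
Each point is one of 18 libraries, with the mean log2(RPKM + 1) of 20 B cell genes on the horizontal axis and of the 30 T lineage genes on the vertical axis. The T lineage mean minus the B cell mean stays between -2.71 and -2.17, and A10-FMT replicate 3 is the lowest library on both axes.

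Within groups the 30 genes varied together. After each gene was centred on its group means, its Pearson correlation over the 18 libraries with the mean of the other 29 had a median of 0.962, from 0.687 for Ubash3a to 0.994 for Tcf7. Without A10-FMT replicate 3 the median was 0.910 and the range 0.643 to 0.986. After Ubash3a, Lcp2 (0.698), Trat1 (0.725), Lat (0.757), S1pr1 (0.775) and Il7r (0.787) followed the others least in those 17 libraries. Genes outside the members whose centred levels followed the mean of the 30 most closely, among genes with a mean of at least 5 RPKM, were Dgka (r = 0.990 over 18 libraries), Cd96 (0.990), Itgb7 (0.989), Hdac7 (0.987), Plekhg2 (0.986), Itpkb (0.985), Mllt6 (0.983), Parp6 (0.980), Mink1 (0.980) and Rassf2 (0.979). Without A10-FMT replicate 3 their correlations were 0.945 to 0.977. All these values rest on the same libraries and on the shared scaling of each library, and they are given as descriptions.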

How the data were processed

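Poly(A) RNA of mouse spleen was sequenced by the authors in 18 libraries, 3 in each of 6 groups assigned from the sample labels. The authors deposited RPKM values (reads divided by gene length in kilobases and by mapped reads) for each gene. The submitters' processing notes name Bowtie 0.12.2 and the build mm10, while the study's methods name SOAPaligner, and the annotation is not given in the sources used here. Read counts are not part of the table, so depth is unknown and counting error cannot be given. In 179 olfactory receptor genes the most frequent value above 0 was 0.08 RPKM. Of 19326 lines, 6 with a repeated symbol were left out, and 0 value columns lacked a sample.

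Groups were compared on log2(RPKM + 1) in R 4.3.3 by limma 3.58.1 with its trend option. The scale understates changes of low genes. There was one fit over the 18 libraries with a coefficient per group. Genes that reached an RPKM of 1 in fewer than 3 libraries were left out. P-values are two-sided and adjusted by the Benjamini-Hochberg method over all 12905 genes, with a threshold of 0.05. The study's DEGseq method needs counts and was not run. The script was tested on simulated data. There were 7 comparisons of 2 groups and the interaction of STZ and AOS.

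All 30 members are named. Values in every library are given for the 8 most abundant members, for the least abundant and, added after the values were seen, for Cd3e, Cd28, Lcp2, Prkcq, Ubash3a and Il7r. Of the other lists, genes past the threshold are named. For the signalling, naive and activation lists, the 2 genes with the largest change in each direction at a mean of at least 5 RPKM are named, in STZ against Con and in A10-FMT against STZ, and so are the 10 genes most like the members. Of the genes this rule selects, 1 is not reported here. The members and lists were chosen with earlier results of these data known. The alternatives were quantile normalization, median centring, rescaling without globin and exocrine pancreas genes, a pseudocount of 0.1, 2 other filters, no trend, array weights, fits of the compared groups only, the replicate number as a block and leaving out each library. Lists were also recomputed without 3 libraries chosen after seeing the data.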

Additional observations from a re-analysis of the deposited data

How the results depend on the processing

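The count of T lineage genes past the threshold stayed at 0 in every comparison and alternative except under array weights and when 1 library was left out. Array weights gave 29 members in STZ against Con, 10 in A10 against Con, 27 in STZ-A10 against A10, 10 in STZ-A10 against STZ, 7 in A10-FMT against STZ, 28 in Con-FMT against STZ, 30 in A10-FMT against Con-FMT and 2 for the interaction. The same fits called 15.3 to 66.0% of all genes, and the weights ran from 0.0462 for A10-FMT replicate 3 to 424 for A10-FMT replicate 1 without converging, so a group mean rested on nearly 1 library. Median differences under array weights, chosen after seeing the data, were -0.71 in STZ against Con, 0.77 in Con-FMT against STZ and 0.07 in A10-FMT against STZ. Leaving out 1 library gave 0 to 1 members in STZ against Con (Lcp2, without A10-FMT replicate 3, where 1.82% of all genes passed) and 0 to 27 in A10-FMT against Con-FMT (27 without A10-FMT replicate 2, where 20.4% of all genes passed). Of the single differences, S1pr1 in STZ against Con ranged from -0.14 to 0.37 without 1 library, Il7r in STZ-A10 against A10 from -0.21 to 0.45, Cd3g in A10-FMT against STZ from -0.76 to 0.18 and the Il7r interaction from -0.61 to 0.0533. Under array weights Il7r in STZ-A10 against A10 was -0.0575 and Cd3g in A10-FMT against STZ was 0.0665. Of the named single members, 411 of the recomputed values kept their direction and side of the threshold, 26 passed the threshold and 7 changed sign. With the libraries centred on the median or quantile normalized, the median of the members in A10-FMT against Con-FMT was -0.69 and -0.68. Whether the replicate numbers pair the samples was not settled. The correlation of same-number deviations ran from -0.385 to 0.571 over 21 pairs. For STZ with STZ-A10 it was 0.571, 0.044 and 0.429 in replicates 1, 2 and 3. Pairs of different numbers were not set beside these, so the values cannot decide the question. With the replicate block, 0 members passed, the lowest adjusted p was 0.197 as without it, and 11 calls were made over all genes in 8 comparisons, against 32 without it. Without read counts, the precision of values under 1 RPKM, as for Gata3 in A10-FMT replicate 3 and for Dntt in STZ, is not known.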
